A study of Mus musculus with 22 samples.

Results

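Chaperone and protein folding genes were followed through mouse gastruloids between day 3 and day 5. The set holds 36 genes, chosen by symbol from their known roles: 3 Hsp90 family members, 4 Hsp90 co-chaperones, 7 cytosolic Hsp70, Hsp110 and J proteins, the small heat shock protein gene Hspb1, 3 mitochondrial chaperones, 8 TRiC subunits, 5 prefoldin subunits, 4 endoplasmic reticulum (ER) chaperones besides the ER Hsp90, and the cyclophilin gene Ppia. All 36 were found among the 32285 genes of the files. Gastruloids are aggregates of mouse embryonic stem cells in which tissues of a gastrulating embryo arise. Here wild-type E14Tg2A cells were grown in ESLIF medium, aggregated at 300 cells per well in N2B27, and 48 h later given a pulse of the GSK3 inhibitor CHIR99021, which activates Wnt signalling. Every group shares this line, genotype and treatment, so there is no untreated arm, and the gastruloids labelled for sequencing were chosen as representative when they were collected. The cells of each gastruloid carried their own lipid-anchored barcode (MULTI-seq), were pooled after Accutase dissociation and were counted with the 10x Chromium 3′ v3.1 kit.

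The gastruloid was the replicate, and the 135 of 136 that held at least 30 cells were used. MULTI-seq 1 gave 24 of day 5, MULTI-seq 2 gave 11 of day 4 and 12 of day 4.5, and MULTI-seq 3 gave 24 of day 3 and 16 each of days 3.5, 4, 4.5 and 5. Days 3.5 and 4 of MULTI-seq 3 shared lanes, as did its days 4.5 and 5 and the 2 days of MULTI-seq 2. Day 3 of MULTI-seq 3 had lanes of its own. Such a set of lanes is called a pool here. The labels use that word only for MULTI-seq 2, and for MULTI-seq 3 it is inferred from the shared lanes. The deposited lane names give each of the MULTI-seq 3 sets an experiment number of its own. Differences between days are free of pool only within such a pool. The labels do not say that gastruloids of a group came from separate cultures, so p-values measure the spread between gastruloids of 1 pool. A gastruloid held 60 to 1397 cells and 1293296 to 57333371 UMIs (unique molecular identifiers, one per counted transcript). Levels are UMI counts divided by the gastruloid's total (CPM), with totals scaled by edgeR's trimmed mean of M values (TMM). Only 3′ ends are counted and values are not per length, so levels are not compared between genes.

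Chaperones hold newly made or unfolded proteins until they fold. In the cytosol, prefoldin hands nascent actin and tubulin to TRiC, a ring that encloses them, while Hsp70 with its J protein and Hsp110 partners passes kinases and receptors on to Hsp90. Mitochondria fold imported proteins in the Hspd1 and Hspe1 chamber, and the ER has its own Hsp70 (Hspa5, also called BiP), its own Hsp90 (Hsp90b1) and the lectins calnexin and calreticulin for glycoproteins. Heat shock factor induces the cytosolic and mitochondrial genes through heat shock elements, and the unfolded protein response induces the ER genes through ER stress elements.

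Short promoter stretches are shown for the members in which a search found one of these elements, so that their letters can be read beside the levels below. RefSeq windows of GRCm38.p6, running from 250 bases before a start to 50 after it, were found for 30 of the 36 members. Those of Hsp90aa1, Hsp90ab1, Hspa8, Hspa9, Cct4 and Pfdn1 were not used here. The heat shock element GAANNTTCNNGAA, searched on both strands, was in 0.603% of 32851 windows of all genes, and among members in those of Hspd1, Hspe1 and Hsph1. The ER stress element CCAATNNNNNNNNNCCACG, which contains the CCAAT box, was in 0.119% of windows, and among members in those of Hspa5, Hsp90b1, Calr and Canx. A CCAAT box alone was in 37.4% of windows and in those of 19 members. Each sequence below reads 5′ to 3′, with the letters of the element in capitals.
Hspe1, chr1:55088053-55088082, plus strand: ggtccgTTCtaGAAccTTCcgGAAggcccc
Hsph1, chr5:149636287-149636316, minus strand: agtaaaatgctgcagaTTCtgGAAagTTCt
Hspa5, chr2:34772020-34772049, plus strand: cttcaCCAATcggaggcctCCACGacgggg
Hsp90b1, distal element, chr10:86705632-86705661, minus strand: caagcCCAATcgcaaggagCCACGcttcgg
Hsp90b1, proximal element, chr10:86705527-86705556, plus strand: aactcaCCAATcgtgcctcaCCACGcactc
Calr, chr8:84847069-84847098, plus strand: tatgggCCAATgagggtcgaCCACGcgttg
Canx, chr11:50325794-50325823, minus strand: attgaCCAATcaccacgctCCACGaagaat
The Hspe1 stretch also lies in the window of 1 of the annotated Hspd1 starts. These genes lie head to head on chromosome 1, Hspe1 on the plus and Hspd1 on the minus strand, with the Hspe1 start 216 bases from 1 of the annotated Hspd1 starts. The 4 alternating repeats of the stretch hold overlapping matches that lie 84 and 89 bases before the Hspe1 start and 139 and 144 bases before that Hspd1 start. Another annotated Hspd1 start lies inside Hspe1, 95 bases from the Hspe1 start, so transcripts from it overlap Hspe1. The matches lie downstream of this other start, and its window held no heat shock element. The ER stress elements lie 65 bases before the start of Hspa5, 162 before that of Calr, 145 before that of Canx, and 212 and 107 before that of Hsp90b1. The Hsph1 match lies 15 or 36 bases after its annotated starts, inside the transcribed region. A match of letters shows neither binding nor use of an element. Only these exact letters within these windows were searched, so a gene without a match may still have an element with other letters or elsewhere.

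Members took 2.31% to 2.71% of all UMIs in the 8 groups, with the lowest shares at days 4.5 and 5 of MULTI-seq 3. The spread between gastruloids was small: over the 33 members that were tested in all comparisons, the median coefficient of variation ran from 3.53% (MULTI-seq 3 day 3) to 7.52% (MULTI-seq 2 day 4). Depth and quality differed between experiments. Median UMIs per cell ran from 8287 to 38443 over the 18 lanes, and the mean mitochondrial percentage was 5.21% to 5.60% in MULTI-seq 1 and 2 against 2.02% to 2.26% in MULTI-seq 3. Immediate early genes, which respond to handling and dissociation, summed to a mean of 213 to 288 CPM per group. No more than 15 cell barcodes were shared between any of 153 pairs of lanes. Cell type names are the authors' own. All 5 endothelium markers checked peaked in Endothelium, all 5 neuron markers in Neurons, 4 of 5 endoderm markers in Mature Endoderm and 4 of 5 germ cell markers in PGCs. Of 5 cardiopharyngeal and head mesoderm markers only Tbx1 peaked in a name of that kind (Cardiopharyngeal Mesoderm). T, a primitive streak and notochord marker, peaked in Notochord. No primitive streak marker checked peaked in Primitive Streak, but Fgf8 peaked in Anterior Primitive Streak.

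**Figure D1:**
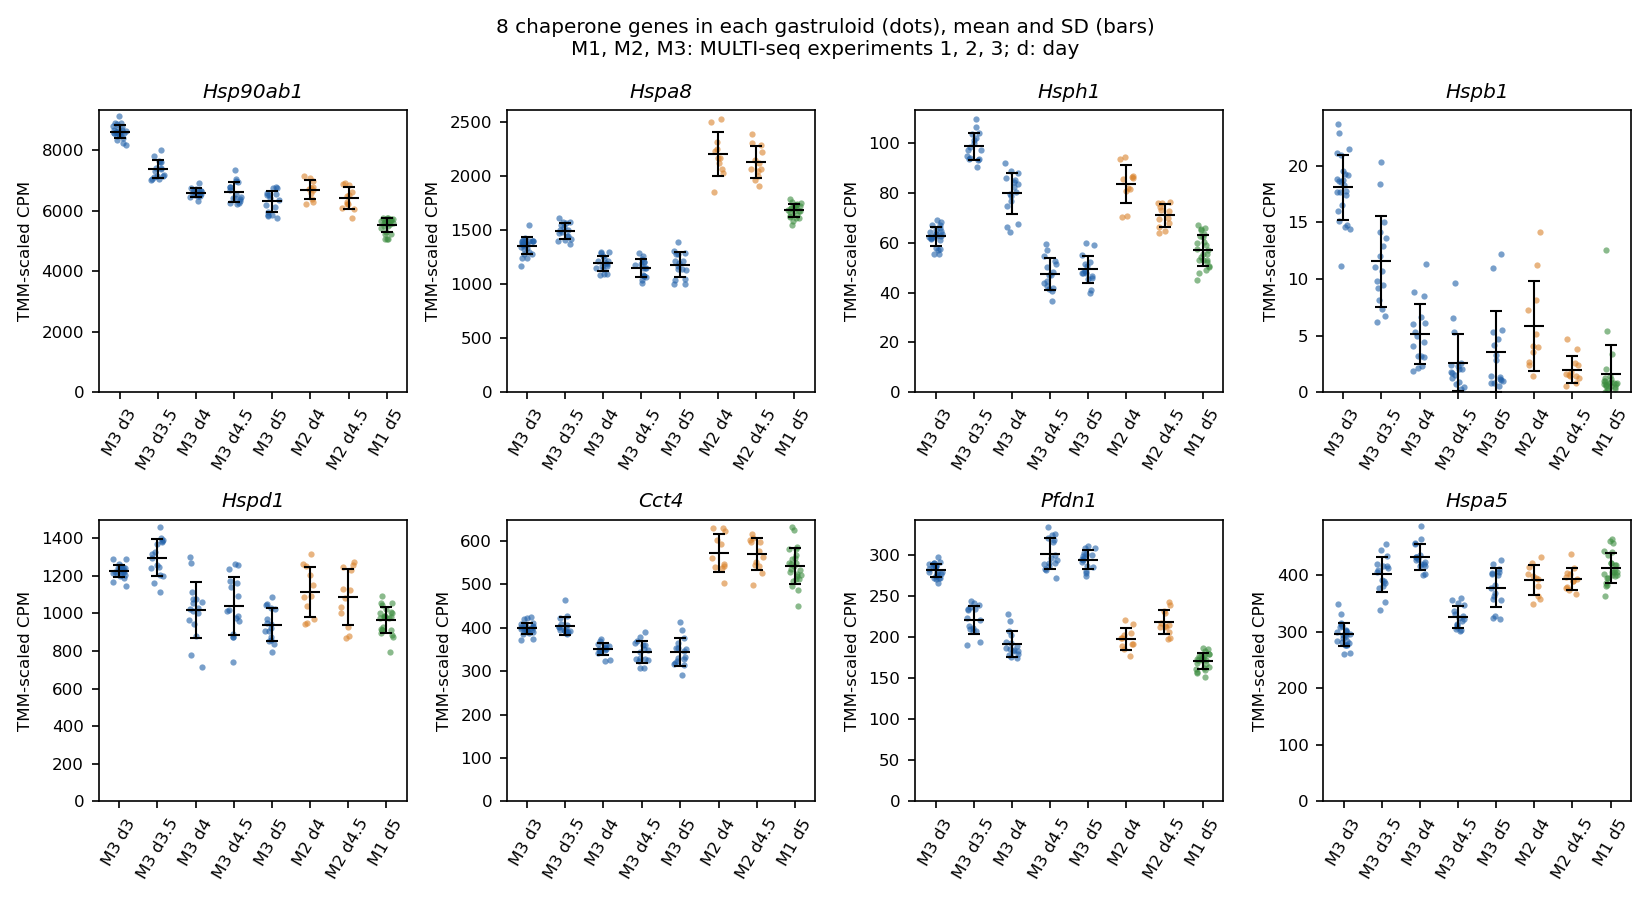
Levels of 8 chaperone genes in each of 135 gastruloids, as TMM-scaled CPM, by experiment (M1, M2 and M3 for MULTI-seq 1, 2 and 3) and day. Dots are gastruloids and bars are the mean and SD; Hspa8 sits higher in MULTI-seq 2 than in MULTI-seq 3 in each gastruloid of the same day.

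Between days 3.5 and 4 of MULTI-seq 3, all 3 mitochondrial chaperones, all 8 TRiC subunits and all 4 Hsp90 co-chaperones were lower at day 4. The cytosolic Hsp70, Hsp110 and J proteins gave 1 higher and 4 lower of 6 and prefoldin 1 higher and 3 lower of 5. In the ER Hspa5 and Hsp90b1 were slightly higher and Canx was lower. Of 35 members tested, 4 were higher and 26 lower at an edgeR adjusted p under 0.05, beside 60.4% of 13262 genes called in either direction (31.1% higher, 29.2% lower). The median log2 fold change was -0.15 over members and 0.01 over all genes. In 5 members (Hsp90ab1, Hspa8, Hspa9, Cct4 and Canx) no gastruloid of one day overlapped those of the other, beside 1.2% of all genes. The share of cells with neural names moved with the day, from a mean of 37.3% at day 3.5 to 10.2% at day 4. Marker lists of other cell types moved too: all 4 somite markers tested, all 5 cardiopharyngeal and head mesoderm markers and 4 of 5 endoderm markers were higher at day 4, and 4 of 5 primitive streak and all 3 neuron markers lower. Their part in the result was not tested. On library totals without TMM, Fkbp4 (-0.08, edgeR adjusted p = 0.117) and Cdc37 (-0.04, edgeR adjusted p = 0.161) did not pass, and Dnaja1 (0.07, edgeR adjusted p = 0.042) and Pdia3 (0.07, edgeR adjusted p = 0.0157) were higher. With the neural share as a covariate 25 members passed, 2 higher and 23 lower, beside 50.7% of all genes, and Hspa5 was no longer called.

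Hsp90ab1, the constitutive cytosolic Hsp90, had lowest, median and highest levels of 7029, 7356 and 8014 CPM at day 3.5 and of 6331, 6608 and 6925 CPM at day 4. Each day 4 gastruloid lay below each day 3.5 gastruloid, with a log2 fold change of -0.15 ± 0.017 (SE; edgeR adjusted p = 1.15e-08). Hsp90aa1, the stress-inducible form, went from 1373 ± 62.8 to 1156 ± 92.5 CPM (SD, n = 16 each), a log2 fold change of -0.24 ± 0.031 (edgeR adjusted p = 1.29e-07). The co-chaperones had log2 fold changes from -0.17 for Stip1, which bridges Hsp70 and Hsp90, through -0.11 for the Hsp90 ATPase activator Ahsa1 and -0.10 for the immunophilin Fkbp4, to -0.06 for the kinase adaptor Cdc37.

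Hspa8, the constitutive cytosolic Hsp70, had lowest, median and highest levels of 1371, 1489 and 1607 CPM at day 3.5 and 1079, 1187 and 1296 CPM at day 4. The days did not overlap, and the log2 fold change was -0.31 ± 0.027 (edgeR adjusted p = 1.37e-10). Its nucleotide exchange partners of the Hsp110 family also fell, Hsph1 by a log2 fold change of -0.29 ± 0.041 (edgeR adjusted p = 4.33e-07) and Hspa4 by -0.24 ± 0.041 (edgeR adjusted p = 6.54e-06). Of the J proteins, which stimulate the Hsp70 ATPase, Dnajb1 rose (0.15 ± 0.036, edgeR adjusted p = 0.000604) and Dnaja1 was at 0.05 (edgeR adjusted p = 0.074). The stress-inducible Hsp70 genes Hspa1a and Hspa1b were near 0 throughout. Hspa1a never passed the filter on low counts, with group means of 0.146 to 0.284 CPM, and Hspa1b, at 0.467 to 0.840 CPM, passed it in 2 comparisons. Here Hspa1b fell (-0.51 ± 0.16, edgeR adjusted p = 0.00742; -0.34 and edgeR adjusted p = 0.126 with the neural share as a covariate). These 2 genes are nearly identical copies, so reads may match both. How such reads were counted was not checked, and the levels of both may be affected.

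The mitochondrial Hsp70 gene Hspa9 had lowest, median and highest levels of 228, 253 and 278 CPM at day 3.5 and 149, 192 and 227 CPM at day 4. The days did not overlap, and the log2 fold change was -0.37 ± 0.041 (edgeR adjusted p = 9.07e-09). Hspd1, the chaperonin of the mitochondrial matrix, had 1113, 1305 and 1461 CPM at day 3.5 and 716, 1027 and 1298 CPM at day 4 (lowest, median, highest). Its days overlapped, and its log2 fold change was -0.34 ± 0.057 (edgeR adjusted p = 8.31e-06). Its lid, Hspe1, moved with it, from 1039 ± 63.6 to 797 ± 102 CPM (-0.37 ± 0.048, edgeR adjusted p = 1.30e-07). Mitochondrial folding and import genes outside the set gave 11 of 12 lower and 0 higher, beside the 29.2% of all genes called lower, led by the import channel gene Tomm40 (-0.46), the protease gene Clpp (-0.28) and the matrix cyclophilin gene Ppif (-0.27).

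All 8 TRiC subunits fell, by log2 fold changes from -0.22 for Cct6a to -0.09 for Tcp1. Cct4 had 386, 398 and 465 CPM at day 3.5 and 324, 351 and 375 CPM at day 4 (lowest, median, highest), without overlap and with a log2 fold change of -0.19 ± 0.022 (edgeR adjusted p = 1.74e-08). Subunits of this ring assemble in equal numbers. Prefoldin was mixed: Pfdn1, Pfdn4 and Vbp1 fell (-0.20, -0.15 and -0.10), Pfdn5 rose (0.12) and Pfdn2 was at 0.0045 (edgeR adjusted p = 0.88). Ppia, the abundant cytosolic cyclophilin, was at -0.04 (edgeR adjusted p = 0.17), and has processed pseudogenes that can match its reads, which may affect its count.

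Hspa5 had 338, 408 and 454 CPM at day 3.5 and 399.6, 427 and 487 CPM at day 4 (lowest, median, highest), overlapping ranges with a log2 fold change of 0.12 ± 0.034 (edgeR adjusted p = 0.00397). With the neural share as a covariate its log2 fold change was 0.06 (edgeR adjusted p = 0.124). Hsp90b1, the ER Hsp90, rose (0.18 ± 0.059, edgeR adjusted p = 0.0103). The lectin Canx fell from 338 ± 24.2 to 289 ± 9.27 CPM without overlap (-0.21 ± 0.027, edgeR adjusted p = 9.11e-08), whereas its relative Calr (-0.02, edgeR adjusted p = 0.719) and the disulfide isomerase Pdia3 (0.04, edgeR adjusted p = 0.146) did not pass in edgeR. The small heat shock protein gene Hspb1 had the largest fold change of all members, from 11.6 ± 4.02 to 5.13 ± 2.68 CPM (-1.15 ± 0.22, edgeR adjusted p = 4.07e-05).

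Between days 4.5 and 5 of MULTI-seq 3 few members passed, and among those that did the largest fold changes were in the ER group (Hspb1, at 0.45, did not pass; edgeR adjusted p = 0.552). Calr, Hspa5 and Pdia3 were higher at day 5 and Hspa4, Cct6a and Cct2 lower, so that 6 of 34 members tested passed, 3 higher and 3 lower, beside 13.5% of 12298 genes (6.35% higher, 7.11% lower). The median log2 fold change was -0.02 over members and -0.0007 over all genes, and no member separated the days without overlap (0.0488% of all genes did). Calr, the calcium-binding ER lectin, had lowest, median and highest levels of 241, 273 and 317 CPM at day 4.5 and 265, 322 and 380.3 CPM at day 5, with a log2 fold change of 0.25 ± 0.047 (edgeR adjusted p = 0.000543). Hspa5 had 302, 323 and 359 CPM at day 4.5 and 322, 379 and 427 CPM at day 5, with a log2 fold change of 0.21 ± 0.041 (edgeR adjusted p = 0.000602). In both genes the ranges overlapped, with the day 5 median above the highest day 4.5 value. Pdia3, the partner of both lectins, rose less (0.14 ± 0.041, edgeR adjusted p = 0.0232; 0.13 and edgeR adjusted p = 0.0516 without lane A of the pool). Hsp90b1 (0.11, edgeR adjusted p = 0.26) and Canx (0.01, edgeR adjusted p = 0.928) did not pass in edgeR.

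On the falling side, Hspa4 changed by -0.15 ± 0.032 (edgeR adjusted p = 0.00177), Cct6a by -0.13 ± 0.036 (edgeR adjusted p = 0.0105; 0.0529 with no filter) and Cct2 by -0.09 ± 0.027 (edgeR adjusted p = 0.0185; edgeR adjusted p = 0.0634 without lane C and 0.125 with no filter). Cct2 and Cct6a are subunits of the same ring, and the other 6 subunits lay between -0.06 and 0.0021. Hsp90ab1 was at -0.07 (edgeR adjusted p = 0.0643; -0.05 and 0.0402 on library totals without TMM), Hspd1 at -0.14 (edgeR adjusted p = 0.0922) and Hspa8 at 0.04 (edgeR adjusted p = 0.532), without passing. With the share of neural names as a covariate (means of 41.6% and 33.9%) the count was 10 members, 4 higher and 6 lower, beside 24.2% of all genes. ER folding and unfolded protein response genes outside the set gave 5 of 21 higher and 1 lower, beside the 13.5% of all genes called, led by Xbp1, the transcription factor of that response (0.48), the disulfide isomerase gene Pdia4 (0.28) and the Hspa5 cofactor gene Sdf2l1 (0.27). The integrated stress response list, which holds targets of the kinases that slow translation, gave 0 of 11 in either direction by edgeR's adjusted p (6 at an unadjusted p under 0.05).

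Between days 4 and 4.5 of MULTI-seq 2, with 11 and 12 gastruloids, 5 of 34 members passed, 1 higher and 4 lower, beside 7.36% of 11064 genes (3.03% higher, 4.33% lower). The median log2 fold change was -0.02 over members and -0.0018 over all genes. Canx separated the days without overlap, as did 0.136% of all genes: it had lowest, median and highest levels of 284, 299 and 326 CPM at day 4 and 240.3, 256 and 270.2 CPM at day 4.5 (-0.25 ± 0.029, edgeR adjusted p = 1.57e-05). Hsph1 went from 83.6 ± 7.70 to 71.0 ± 4.49 CPM (-0.24 ± 0.049, edgeR adjusted p = 0.003). Of the 5 members called, Canx and Hsph1 had an adjusted p under 0.05 in each alternative run for this comparison. Hspb1 went from 5.82 ± 4.00 to 1.98 ± 1.2 CPM (-1.44 ± 0.36, edgeR adjusted p = 0.0146; -0.74 and edgeR adjusted p = 0.217 with gastruloids of at least 100 cells). Hspa4 fell (-0.13 ± 0.038, edgeR adjusted p = 0.0332; edgeR adjusted p = 0.221 without lane 2 and 0.0872 on library totals without TMM), and the prefoldin gene Pfdn1 rose (0.13 ± 0.04, edgeR adjusted p = 0.0435; edgeR adjusted p = 0.283 without lane 3). Hspa5 (-0.0018), Hsp90ab1 (-0.07), Hspd1 (-0.04) and Hspa8 (-0.06) did not pass, with edgeR adjusted p-values of 0.992, 0.155, 0.806 and 0.495. The neural share rose from a mean of 23.0% to 43.5%, and with it as a covariate 13 members passed, 2 higher and 11 lower, beside 14.4% of all genes.

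Counts within a single cell type name leave aside the mix of types, though the names came from the same expression values. Each test below summed the cells of 1 name per gastruloid, with at least 20 such cells and at least 5 gastruloids a group. All of them used TMM, and no fit on library totals was run within names. From day 3.5 to day 4 of MULTI-seq 3, 2 names could be tested. Within Caudal Epiblast (13 and 13 gastruloids) 17 of 34 members were lower and 0 higher, beside 18.8% of all genes called. Hsph1 (-0.30 ± 0.063), Hsp90aa1 (-0.26 ± 0.034) and Hspe1 (-0.23 ± 0.031) were the 3 with the largest fold changes. Within Early Posterior PSM (presomitic mesoderm, the tissue that segments into somites; 10 and 15 gastruloids) 19 were lower and 1 higher, beside 36.9% of genes, led by Hspb1 (-1.14 ± 0.25), Hspa8 (-0.38 ± 0.032) and Hsph1 (-0.34 ± 0.052). All 3 mitochondrial chaperones and all 3 Hsp90 family members were lower inside both names, while TRiC gave 4 and 6 of 8 lower, the Hsp90 co-chaperones 3 and 0 of 4, and prefoldin 0 and 1 of 5. Hspd1 was at -0.18 and -0.15 (edgeR adjusted p = 0.000149 and 6.69e-05). In the ER, Hsp90b1, higher in the sums over all cells, was lower within both names (-0.23 and -0.19, edgeR adjusted p = 0.00132 and 0.000264), a difference that was not tested. Calr, which did not pass in whole gastruloids, was lower within both (-0.20 and -0.26), and Hspa5 passed in neither (-0.06 and -6.4e-05).

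**Figure D2:**
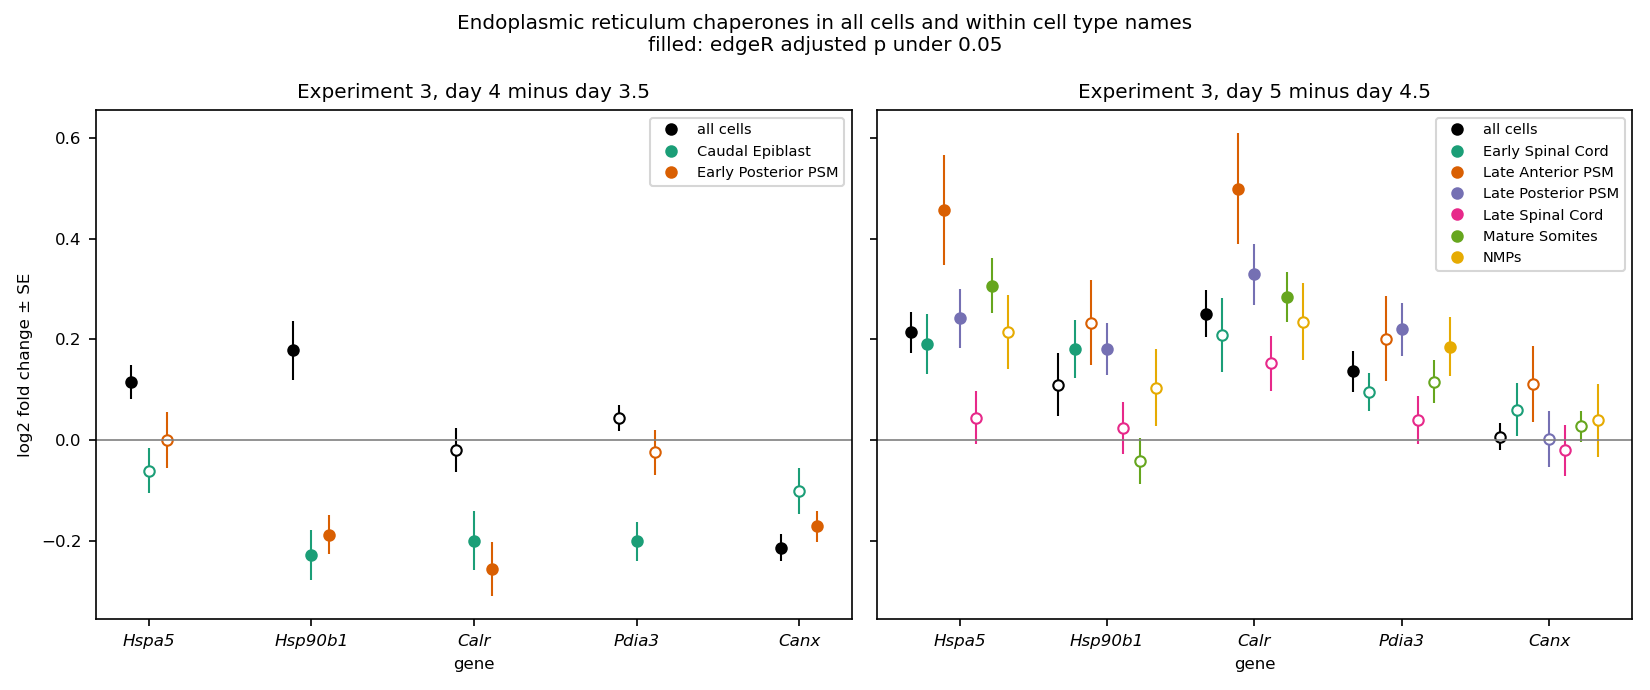
Log2 fold changes with SE of 5 ER chaperones in whole gastruloids and within single cell type names, for the later against the earlier day; filled symbols have an edgeR adjusted p under 0.05. From day 3.5 to 4 Hsp90b1 is above 0 in all cells and below 0 within both names, and from day 4.5 to 5 Hspa5 lies above 0 in each of the 6 names.

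From day 4.5 to day 5, 6 names could be tested. Hspa5 passed within 4 of them: Late Anterior PSM (0.46 ± 0.11), Mature Somites (0.31 ± 0.055), Late Posterior PSM (0.24 ± 0.059) and Early Spinal Cord (0.19 ± 0.06), with edgeR adjusted p-values of 0.016, 0.000104, 0.00705 and 0.0289. In NMPs (neuromesodermal progenitors, which give spinal cord and mesoderm) it was at 0.22 and in Late Spinal Cord at 0.04, without passing. Calr passed within 3: Late Anterior PSM (0.50 ± 0.11), Late Posterior PSM (0.33 ± 0.061) and Mature Somites (0.28 ± 0.051). The named types differ here in which members passed, but no test compared them with each other. Late Anterior PSM (5 and 12 gastruloids) called 2 of 33 members beside 1.81% of genes, Late Posterior PSM (9 and 15) 6 beside 6.15%, Mature Somites (10 and 16) 5 beside 14.6%, and Early Spinal Cord (14 and 15) 5 beside 12.3%. In NMPs (8 and 14) 6 were lower and 1 higher beside 6.06% of genes, with Hspa4 at -0.21 ± 0.06, Pdia3 at 0.19 ± 0.058 and Ppia at -0.16 ± 0.044. In Late Spinal Cord (7 and 8) 3 were lower and 1 higher beside 7.79%, with Cct6a at -0.15 ± 0.029, Hspd1 at -0.15 ± 0.033 and Pfdn5 at 0.14 ± 0.043. Mature Somites also held Hspa8 among the higher members (0.20 ± 0.053), and Early Spinal Cord held Hsp90b1 (0.18 ± 0.058).

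The remaining steps of MULTI-seq 3 cross pools, so day and pool cannot be told apart in them. From day 3 to day 3.5, 28 of 34 members passed, 9 higher and 19 lower, beside 74.8% of 11981 genes (39.3% higher, 35.6% lower). The median log2 fold change was -0.10 over members and 0.03 over all genes. Prefoldin was lower as a group (5 of 5), and Hsph1 and Hspa5 were higher. Hsph1 had lowest, median and highest levels of 55.4, 62.7 and 69.3 CPM at day 3 and 90.7, 97.9 and 109.6 CPM at day 3.5, without overlap (0.66 ± 0.026, edgeR adjusted p = 9.46e-25). Hspa5 had 260.2, 294 and 349 CPM and 338, 408 and 454 CPM (0.45 ± 0.033, edgeR adjusted p = 6.30e-16). Hspa5 values overlapped between the days and those of Hsph1 did not. Among the lower members were Hspb1 (-0.68), the prefoldin genes Pfdn4 (-0.51), Vbp1 (-0.48), Pfdn1 (-0.35) and Pfdn2 (-0.34), Ahsa1 (-0.35), Hspe1 (-0.30) and Hsp90aa1 (-0.27), whose edgeR adjusted p-values were 6.53e-07 or less. Hsp90ab1 fell (-0.22 ± 0.016), whereas Hspa8 (0.14 ± 0.025) and Hspd1 (0.08 ± 0.023) rose, with edgeR adjusted p-values of 3.89e-16, 3.52e-06 and 0.00159 (for Hspd1, 0.04 and 0.0762 with the neural share as a covariate). The groups did not overlap for 12 members, beside 13% of genes. The mean share of neural names went from 17.5% to 37.3%, all 5 pluripotent or epiblast markers (median log2 fold change -2.16) and 4 of 5 primitive streak markers were lower, and all 5 presomitic mesoderm markers were higher (median 1.61). With the neural share as a covariate the median over members was -0.10; the part of the markers in the result was not tested.

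On library totals without TMM the median of all genes stood at 0.19, and the split became 18 higher and 11 lower, beside 76.7% of all genes called. Dnaja1, Tcp1 and Cct5 were then called in the opposite direction. Each log2 fold change of a member stood 0.158 to 0.164 above its value with TMM, so that Hspa8 was at 0.30, Hspd1 at 0.25, Hsp90ab1 at -0.06, Hsp90aa1 at -0.11, Hspe1 at -0.14 and Pfdn1 at -0.18. TRiC went from 0 higher and 6 lower to 4 higher and 1 lower, while prefoldin stayed lower (0 higher and 4 lower of 5). The fits within names that follow are with TMM. None was run on library totals, so whether their splits depend on the scaling in the same way was not tested. Within Primitive Streak, the name of cells akin to those that enter gastrulation (24 and 13 gastruloids), 9 members were higher and 23 lower of 34, beside 60.4% of genes. They were led by Ahsa1 (-0.56), Pfdn4 (-0.51) and Hspb1, which was higher there (0.48). Within Early Neurectoderm (16 and 6) 4 were higher and 13 lower beside 43.5%, led by Pfdn4 (-0.53), Hspa5 (0.50) and Hsph1 (0.45). In Early Posterior PSM (5 and 10) 6 were higher and 19 lower beside 37.6%, with Hspb1 at -1.41. Hspb1 thus stood on opposite sides of 0 in Primitive Streak and Early Posterior PSM, a difference that was not tested.

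From day 4 to day 4.5, 26 of 34 members passed, 16 higher and 10 lower, beside 66.1% of 12843 genes (32.4% higher, 33.8% lower), with a median of 0.05 over members and -0.02 over all genes. All 5 prefoldin subunits were higher and 3 of the 4 ER chaperones lower. Pfdn1 had lowest, median and highest levels of 175, 186 and 228 CPM at day 4 and 272, 295 and 334 CPM at day 4.5, without overlap (0.66 ± 0.035, edgeR adjusted p = 3.38e-17). Pfdn4 (0.64), Pfdn2 (0.47) and Pfdn5 (0.35) also separated the days. Hsph1 had 64.2, 81.6 and 92.3 CPM at day 4 and 36.6, 47.1 and 59.4 CPM at day 4.5, again without overlap but in the other direction (-0.74 ± 0.058, edgeR adjusted p = 4.65e-13). Hspa5 (-0.40 ± 0.03) and Hspa4 (-0.34 ± 0.036) were lower, Hspe1 (0.47 ± 0.066) and Ahsa1 (0.35 ± 0.043) higher, with edgeR adjusted p-values of 2.12e-13, 6.69e-10, 1.72e-07 and 1.02e-08. Hspb1 was lower (-0.92 ± 0.34, edgeR adjusted p = 0.0182; -0.70 and edgeR adjusted p = 0.0832 without lane C of the later pool). Hsp90ab1 (0.01), Hspd1 (0.04) and Hspa8 (-0.05) did not pass (edgeR adjusted p = 0.569, 0.654 and 0.183). The groups did not overlap for 9 members, beside 10.8% of genes. The mean share of neural names went from 10.2% to 41.6%, all 4 neural markers tested (median 2.08) and 3 of 5 somite markers were higher, and 3 of 4 pluripotent or epiblast markers were lower. With the neural share as a covariate the median over members was -0.01; the part of the markers in the result was not tested.

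On library totals without TMM this split turned to 8 higher and 21 lower, beside 71% of all genes called, with all genes at a median of -0.22. Each log2 fold change of a member stood below its value with TMM, by -0.199 to -0.186, so that Hspe1 was at 0.28, Ahsa1 at 0.16, Pfdn5 at 0.15 and Hspa4 at -0.54. Cct5, Cct7 and Cct8 then changed direction, and TRiC went from 5 higher and 0 lower to 0 higher and 6 lower, while prefoldin stayed at 5 higher and 0 lower. Hsp90ab1 was then lower (-0.19), as were Hspa8 (-0.25) and Hspd1 (-0.16). The fits within names were again with TMM and not on library totals. Within the 4 names tested, Hsph1 was lower in Late Anterior PSM (-1.10), Late Posterior PSM (-0.89), Mature Somites (-0.84) and NMPs (-0.73), and Pfdn1 was higher in each (0.64, 0.62, 0.59 and 0.45). Members higher and lower there numbered 8 and 10 (31.1% of genes called), 14 and 11 (52.1%), 8 and 12 (51.1%) and 10 and 8 (37.6%). Of the members, 22 passed in both pool-crossing steps and 20 of them had opposite signs, Hspb1 and Hspa9 being the exceptions. The pool of days 3.5 and 4 enters both steps, and among all genes 75.1% of the 6301 called in both had opposite signs.

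Experiments were compared at the same labelled day: MULTI-seq 3 against MULTI-seq 2 at days 4 and 4.5, and against MULTI-seq 1 at day 5. Experiment, culture, library and depth cannot be told apart here, nor can any difference in how counts were made. In the MULTI-seq 1 lanes the deposited counts of a cell were a median of 1.03 times its UMI total in the authors' cell table. In the lanes of MULTI-seq 2 and 3 they were 1 times that total. The part of this in the result was not tested. The mitochondrial percentage, given above, differed between the experiments as well. The mean share of neural names was 23.0% in MULTI-seq 2 and 10.2% in MULTI-seq 3 at day 4, and 43.5% and 41.6% at day 4.5. At day 5 it was 42.4% in MULTI-seq 1 and 33.9% in MULTI-seq 3. Hspa8 and most TRiC subunits were lower in MULTI-seq 3 each time, and Pfdn2 was higher. At day 4, 25 of 35 members passed, 5 higher and 20 lower, beside 46.1% of 13713 genes (medians -0.19 over members and 0.02 over all genes). At day 4.5, 26 of 34 passed, 5 higher and 21 lower, beside 42.5% of 11695 genes (-0.16 and -0.0068). At day 5, 30 of 33 passed, 11 higher and 19 lower, beside 63.7% of 11718 genes (-0.13 and -0.02). Groups did not overlap for 12, 10 and 11 members, beside 8.27%, 5.66% and 9.76% of genes. These comparisons are not independent, since days 4.5 and 5 of MULTI-seq 3 shared a pool, as did the days of MULTI-seq 2. On library totals without TMM the splits were 10 higher and 14 lower at day 4 (median of all genes 0.18, Canx in the opposite direction), 4 and 22 at day 4.5 (-0.05), and 3 and 24 at day 5 (-0.25, Ahsa1 and Pfdn4 in the opposite direction). Of all genes 50.1%, 43.4% and 74.7% were called in these fits. Members moved by 0.164 to 0.166, by -0.05 to -0.03 and by -0.226 to -0.222, and their median was then -0.03, -0.21 and -0.35, so the sizes of these differences, and their order over the days, depend on the scaling. Of the marker lists, 3 of 5 somite markers (median 0.83) and 3 of 5 endoderm markers (median 1.23) were higher in MULTI-seq 3 at day 5, against 0 of either list at days 4 and 4.5. Their part in the result was not tested.

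**Figure D3:**
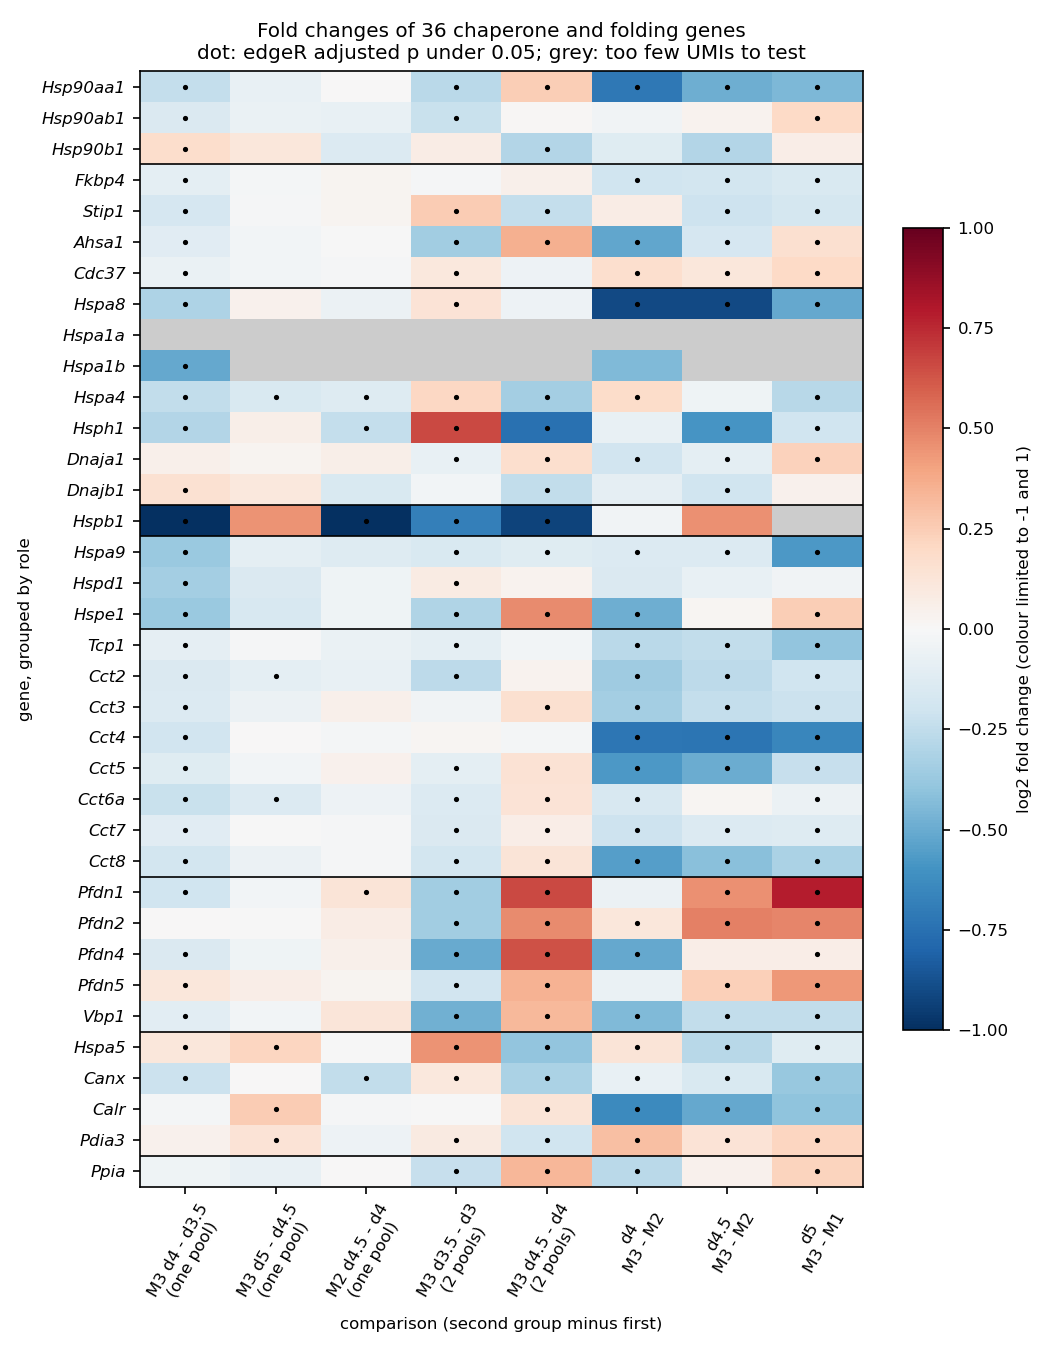
Log2 fold changes of the 36 genes (rows, grouped by role) in 8 comparisons (columns), with colours limited to -1 and 1, dots for an edgeR adjusted p under 0.05 and grey for genes not tested. The column of MULTI-seq 3 day 4 against day 3.5 is mostly on the lower side, and TRiC rows are on the lower side in the 3 columns that compare experiments, except Cct6a at day 4.5.

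Hspa8 had lowest, median and highest levels of 1847, 2166 and 2528 CPM at day 4 of MULTI-seq 2 and of 1079, 1187 and 1296 CPM at day 4 of MULTI-seq 3, a log2 fold change of -0.90 ± 0.039 (edgeR adjusted p = 2.47e-17). At day 4.5 the difference was -0.90 ± 0.036 and at day 5, against MULTI-seq 1, -0.51 ± 0.031 (edgeR adjusted p = 8.39e-19 and 1.40e-18). At none of the 3 days did any gastruloid of one experiment overlap the other. Pseudogenes of Hspa8 can match its reads, which may affect its count. Cct4 had 502, 560.4 and 630.4 CPM in MULTI-seq 2 and 324, 351 and 375 CPM in MULTI-seq 3 at day 4 (-0.72 ± 0.031), with -0.73 ± 0.036 at day 4.5 and -0.65 ± 0.036 at day 5 (edgeR adjusted p = 1.73e-17, 1.80e-16 and 1.04e-19). TRiC as a whole was lower in 8, 7 and 8 of its 8 subunits, and without TMM in 6, 7 and 8, with 0 higher each time. Subunits differed in size: Cct5 was at -0.58, -0.49 and -0.23, Cct8 at -0.55, -0.42 and -0.32, and Cct6a at -0.16, 0.02 and -0.06. Without TMM Cct5 was at -0.41, -0.54 and -0.46, Cct8 at -0.39, -0.46 and -0.54, and Cct6a at 0.0041, -0.03 and -0.28.

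Prefoldin, which delivers substrates to TRiC, gave 1 higher and 2 lower of 5 at day 4, 3 and 1 at day 4.5, and 4 and 1 at day 5 (3 and 2, 3 and 1, and 3 and 2 without TMM). Pfdn4 was lower at day 4 without overlap (-0.51), at 0.06 at day 4.5 without passing, and higher at day 5 (0.07; -0.16 without TMM). Pfdn2 was higher each time (0.11, 0.50 and 0.49). Pfdn1 had 151, 173 and 187 CPM in MULTI-seq 1 and 274, 296 and 311 CPM in MULTI-seq 3 at day 5 (lowest, median, highest), without overlap (0.79 ± 0.022, edgeR adjusted p = 7.79e-31), and was at -0.06 (edgeR adjusted p = 0.279; 0.11 and 0.0402 without TMM) at day 4 and 0.46 at day 4.5. Vbp1, another prefoldin subunit, was lower each time (-0.44, -0.25 and -0.24). Among Hsp90 genes the 2 cytosolic forms parted: Hsp90aa1 was lower (-0.72, -0.49 and -0.45), while Hsp90ab1 was at -0.03 and 0.04 without passing, and at 0.20 at day 5 (edgeR adjusted p = 6.06e-11; -0.03 and not called without TMM). Without TMM Hsp90ab1 was called higher at day 4. The ratio of Hsp90ab1 to Hsp90aa1 UMIs, which no scaling between libraries touches, had means of 4.90 to 5.74 over the days of MULTI-seq 3, of 3.58 and 3.40 in MULTI-seq 2 and of 3.13 in MULTI-seq 1.

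In the ER group Calr was lower (-0.64, -0.51 and -0.41) and Pdia3 higher (0.30, 0.14 and 0.21). On library totals without TMM Pdia3 did not pass at day 4.5 (0.09, edgeR adjusted p = 0.0752) or at day 5 (-0.0099, edgeR adjusted p = 0.822). Hspa5 was higher at day 4 (0.13 ± 0.034, edgeR adjusted p = 0.0028; 0.09 and edgeR adjusted p = 0.0558 with gastruloids of at least 100 cells) and lower at day 4.5 (-0.28 ± 0.032, edgeR adjusted p = 1.72e-08) and day 5 (-0.12 ± 0.035, edgeR adjusted p = 0.00255). Hspd1 passed at none of the 3 days (-0.14, -0.07 and -0.03; edgeR adjusted p = 0.114, 0.461 and 0.41), although without TMM it was called lower at day 5 (-0.26). Hspa9 had its largest difference at day 5 (-0.57). Within cell type names the fits were with TMM, and none was on library totals. Hspa8 was lower in all 4 names tested at day 4.5, by -0.90 (Mature Somites) to -0.996 (Early Spinal Cord), where 19 to 22 members were lower and 3 to 6 higher of 33 and 26.1% to 37.7% of genes were called. At day 5 Cct4 was lower in all 6 names (-0.53 in Late Spinal Cord to -0.72 in Late Posterior PSM) and Pfdn1 higher in all 6 (0.61 in Late Anterior PSM to 0.87 in Late Posterior PSM), where 13 to 18 members were lower and 8 to 12 higher and 39.9% to 59.1% of genes were called.

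The promoter stretch shown above lies before the Hspe1 start and 1 of the annotated Hspd1 starts. Hspd1 and Hspe1 rose and fell together from gastruloid to gastruloid. Within each of the 8 groups of gastruloids the correlation of their log2(CPM + 1) was above 0 and passed, with Pearson's r from 0.57 to 0.98 (permutation p from 1e-05, the smallest that 100000 resamples can give, to 0.00368; adjusted over 48 pairs and groups, 4.36e-05 to 0.00883) and Spearman's rho from 0.53 to 0.99 (permutation p = 1e-05 to 0.00973; adjusted, 5.33e-05 to 0.0212). The lowest r was in MULTI-seq 3 day 3, where it was 0.39 without the 2 gastruloids farthest from the median. In the other 7 groups r without 2 such gastruloids was 0.91 to 0.97. After taking out the neural share r was 0.47 to 0.97 in the 8 groups, all of which passed. By Pearson's r, of the other pairs tested Cct2 and Cct5 passed in 6 of 8 groups, Hsp90aa1 and Hsp90ab1 in 5, Hspa5 and Hsp90b1 in 4, Hspa8 and Dnaja1 in 1, and Hspa1a and Hspa1b in 0 (0 also at an unadjusted permutation p under 0.05). After taking out the neural share the counts were 4 for Cct2 and Cct5, 3 for Hsp90aa1 and Hsp90ab1, and 4 for Hspa5 and Hsp90b1. Hspa8 and Dnaja1 passed below 0 by Spearman's rho without this step in MULTI-seq 3 day 3.5 (rho = -0.57, adjusted permutation p = 0.0393; r = -0.53, adjusted 0.0573) and day 4 (rho = -0.58, adjusted permutation p = 0.0378; r = -0.50, adjusted 0.0797). With it they passed by r in 1 group above 0 and in 1 below 0 (MULTI-seq 3 day 4, r = -0.67, rho = -0.75, adjusted permutation p = 0.013 and 0.00576; r = -0.67 without 2 gastruloids), and Hspa1a and Hspa1b passed below 0 in MULTI-seq 3 day 3.5 (r = -0.59, rho = -0.55, adjusted permutation p = 0.0389 and 0.0635; r = -0.41 without 2 gastruloids), where both genes are near 0. In MULTI-seq 3 day 3.5 the Cct2 and Cct5 values fell into separate clusters, so no pooled r is given there. In MULTI-seq 1 their r of 0.71 was 0.37 without 2 gastruloids. After taking out the neural share, 2 of their 4 groups did not pass by Spearman's rho: MULTI-seq 3 day 4 (rho = 0.58, adjusted permutation p = 0.0504) and day 4.5 (rho = 0.41, adjusted permutation p = 0.194), the latter with r = 0.73 in all gastruloids and 0.14 without 2. Totals, composition and depth are shared by the genes of a gastruloid. How often arbitrary pairs of genes pass in these groups was not computed.

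**Figure D4:**
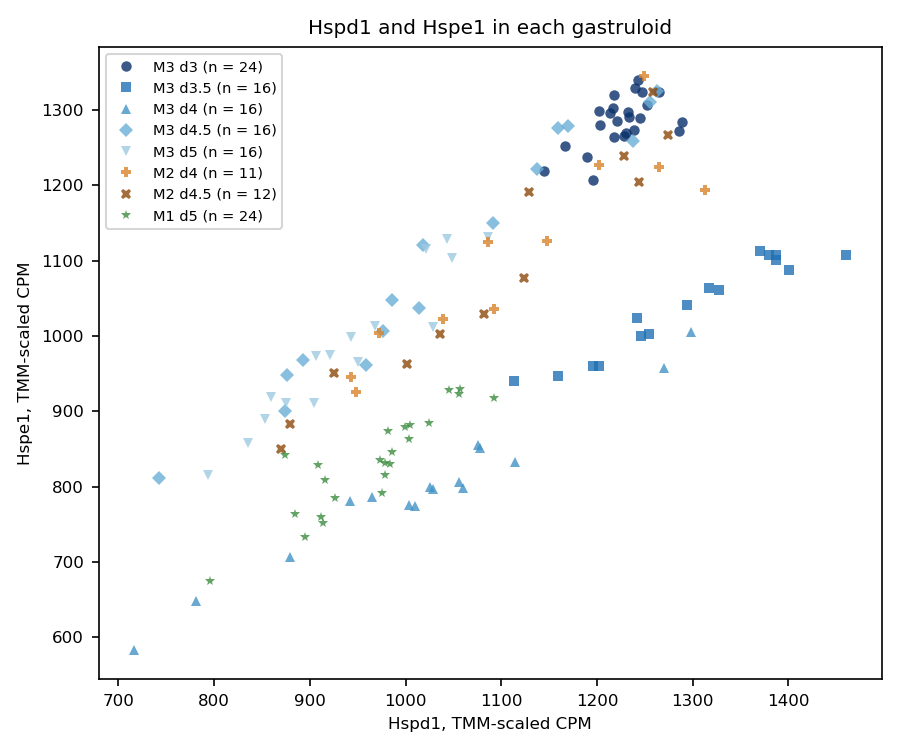
TMM-scaled CPM of Hspe1 against Hspd1 in each gastruloid, coloured by experiment and day. Gastruloids of most groups lie near a line, less so at day 3 of MULTI-seq 3 (r = 0.57). Days 3.5 and 4 of MULTI-seq 3 lie on a lower line than its other days.

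While the pair moved together within groups, its ratio differed between some groups. Hspe1 UMIs over Hspd1 UMIs had a mean of 1.05 in the day 3 gastruloids of MULTI-seq 3 (range 0.99 to 1.08). Day 3.5 had 0.803 (0.76 to 0.84) and day 4 had 0.785 (0.75 to 0.83), whereas day 4.5 had 1.06 (lowest 1.0, highest 1.1) and day 5 had 1.05 (0.98 to 1.09). Days that shared a pool had overlapping ratios, and the pool of days 3.5 and 4 did not overlap the others of that experiment. The pool of day 3 overlapped that of days 4.5 and 5. Days that shared a pool were also neighbouring days, so day and pool cannot be told apart here. MULTI-seq 2 had means of 0.994 on both days and MULTI-seq 1 of 0.863. Pseudogenes of Hspe1 can match its reads, which may affect its count.

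Across cell type names, levels were described and not tested, since the names were made from the same values. Each value is the log2 ratio of CPM + 1 in a name over the other cells of the same gastruloid, averaged over gastruloids (mean ± SD), for the 20 names with at least 5 gastruloids. Names occur in 8 to 71 gastruloids of different days and experiments, and each is set against whatever other cells those hold, so the order of names is not over the same days. ER chaperones peaked in Mature Endoderm: Hsp90b1 was at 0.50 ± 0.26, Pdia3 at 0.46 ± 0.15, Calr at 0.35 ± 0.14, Hspa5 at 0.35 ± 0.17 and Canx at 0.20 ± 0.10, each above 0 in 31 of 31 gastruloids. Pfdn1 also peaked there (0.55 ± 0.15), whereas Cct3 (-0.49 ± 0.14), Hspa9 (-0.37 ± 0.23), Cdc37, Cct5 and Vbp1 had their lowest ratios in it. Early Spinal Cord was the highest name for 8 members, among them Hspe1 (0.36 ± 0.20), Hspd1 (0.33 ± 0.20) and Hspa8 (0.23 ± 0.12, above 0 in 65 of 65 gastruloids). The same name was the lowest for Hsp90b1 (-0.29 ± 0.22). Mature Somites was the lowest name for 9 members, including Hspa4 (-0.30 ± 0.17), Hspa8 (-0.23 ± 0.14) and Cct2 (-0.23 ± 0.10), and Notochord for another 9, including Ahsa1 (-0.49 ± 0.15), Fkbp4 (-0.49 ± 0.093) and Hspe1 (-0.39 ± 0.11). Notochord rests on 9 gastruloids. The share of all genes for which each name is highest or lowest was not computed. These counts therefore cannot be called particular to the set.

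**Figure D5:**
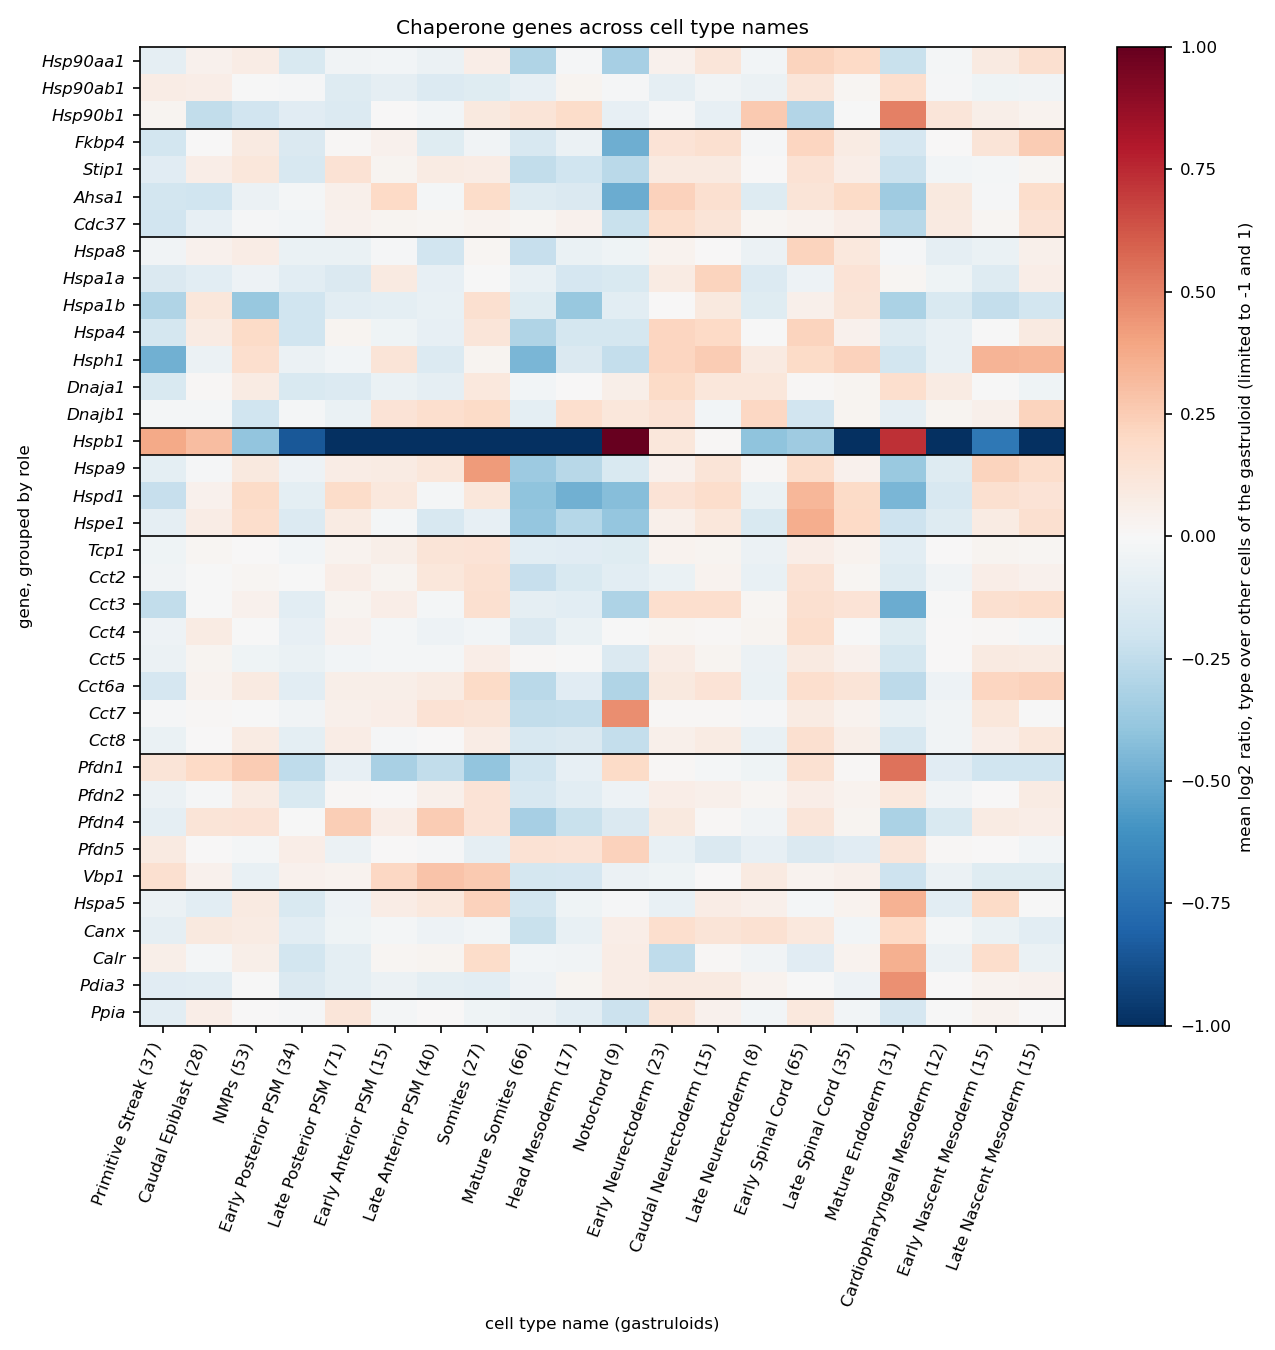
Mean log2 ratio of each gene (rows) in a cell type name (columns) over the other cells of the same gastruloid, with colours limited to -1 and 1. The ER chaperones stand out on the higher side in Mature Endoderm, and Hspb1 has the widest range, from Notochord down to Late Anterior PSM.

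The name with the highest mean differed between subunits of one machine, though some of these means were nearly tied. Of the TRiC genes, Cct4 (0.18 ± 0.15), Cct5 (0.09 ± 0.091) and Cct8 (0.16 ± 0.11) were highest in Early Spinal Cord, Tcp1 and Cct2 in Somites, Cct3 and Cct6a in Late Nascent Mesoderm, and Cct7 in Notochord (0.47 ± 0.13, above 0 in 9 of 9). Cct2 was at 0.15 ± 0.12 in Somites and 0.14 ± 0.11 in Early Spinal Cord. Cct3 was at 0.17 in both Late Nascent Mesoderm and Caudal Neurectoderm, and Cct5 at 0.09 in both Early Spinal Cord and Early Nascent Mesoderm. The mitochondrial Hsp70 gene Hspa9 was highest in Somites (0.42 ± 0.18, 27 of 27) and Hspd1 lowest in Head Mesoderm (-0.48 ± 0.20, below 0 in 17 of 17). Hsph1 ran from 0.34 ± 0.19 in Early Nascent Mesoderm to -0.48 ± 0.15 in Primitive Streak (below 0 in 37 of 37). Among Hsp90 partners, Stip1 peaked in Late Posterior PSM (0.15 ± 0.18, with 0.14 ± 0.13 in Early Spinal Cord). Fkbp4 peaked in Late Nascent Mesoderm (0.26 ± 0.081), and Ahsa1 and Cdc37 in Early Neurectoderm (0.23 ± 0.21 and 0.18 ± 0.16). Dnaja1 and Ppia were also highest in Early Neurectoderm, Dnajb1 in Late Nascent Mesoderm, and Pfdn4 and Vbp1 in Late Anterior PSM. The span from the highest to the lowest name was 0.26 (Tcp1) to 0.94 (Pfdn1) on the log2 scale for 35 members and 4.18 for Hspb1.

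Hspb1 encodes a small heat shock protein that binds actin filaments and prevents aggregation. Its ratio was 2.50 ± 1.03 in Notochord (above 0 in 9 of 9 gastruloids), 0.73 ± 1.01 in Mature Endoderm, 0.38 ± 0.78 in Primitive Streak and -1.67 ± 0.91 in Late Anterior PSM (below 0 in 40 of 40). In absolute terms Hspb1 was at 25.3 ± 7.56 CPM in Notochord at day 4 of MULTI-seq 3 (n = 6, 302 UMIs in all) and at 16.3 ± 3.09 and 24.5 ± 4.50 CPM in Primitive Streak at days 3 and 3.5 (n = 24 and 13). Whole gastruloids had 18.1 ± 2.88, 11.6 ± 4.02, 5.13 ± 2.68, 2.59 ± 2.52 and 3.56 ± 3.57 CPM at days 3 to 5 of MULTI-seq 3, and 1.56 ± 2.60 CPM in MULTI-seq 1. The SD was 15.9% of the mean at day 3 of MULTI-seq 3, but 97.0% and 100.1% at its days 4.5 and 5 and 166% in MULTI-seq 1.

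Stress pathways next to the set were read from lists outside it, by their counts, beside 60.4% of all genes called from day 3.5 to 4, 66.1% from day 4 to 4.5, 74.8% from day 3 to 3.5 and 7.36% in MULTI-seq 2. A count near such a share says nothing particular of a list. All these counts are with TMM. In the steps that cross pools the split of the members depended on the scaling, and counts of these lists on library totals were not made. From day 3.5 to 4 the integrated stress response list gave 10 of 11 lower and 1 higher (median -0.56), led by the glutathione-degrading enzyme gene Chac1 (-2.68), the pseudokinase gene Trib3 (-1.79) and the stress sensor gene Sesn2 (-0.89). From day 4 to 4.5, across pools, 10 of 11 were higher and 0 lower (median 0.78), again led by Chac1 (3.04) and Trib3 (1.92), with the cystine transporter gene Slc7a11 (1.48). Heat shock response genes outside the set gave 8 of 15 higher and 3 lower from day 3.5 to 4, with Hspb8 (0.89), its partner Bag3 (0.71) and the collagen chaperone gene Serpinh1 (0.50) higher, whereas from day 4 to 4.5 the counts were 5 higher and 7 lower, with Bag3 (-1.21) and Dnaja4 (-1.12) lower. ER folding genes outside the set gave 6 higher and 7 lower of 21 from day 3.5 to 4, where Herpud1 (-0.58) and Ddit3 (-0.56) were lower and Hspa13 higher (0.34). From day 4 to 4.5 they gave 10 higher and 8 lower, with Herpud1 at 1.00. From day 3 to 3.5 they gave 11 higher and 7 lower, with the ER Hsp110 gene Hyou1 at 0.64. In MULTI-seq 2 they gave 2 higher (Herpud1 0.42 and Dnajb9 0.34) and 1 lower (Dnajb11 -0.18).

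The remaining lists gave these counts, to be read beside the same shares (13.5% from day 4.5 to 5). From day 3.5 to 4, cytosolic co-chaperones outside the set had 5 higher and 9 lower of 19, prefoldin and chaperonin partners 3 higher and 4 lower of 13, and immediate early genes 4 higher and 6 lower of 16. From day 4.5 to 5 they had 2 higher and 2 lower of 19, 1 and 1 of 13, and 3 and 0 of 15. In MULTI-seq 2 they had 0 and 0 of 19, 0 and 0 of 13, and 1 and 0 of 11 (4 and 3 of the first 2 lists at an unadjusted p under 0.05).

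The 10X experiment, without barcoded gastruloids, had 1 lane of day 3 and 1 of day 4 (3058 and 2440 cells), so its differences have no replicate check. Hsp90ab1 was at 8972 CPM of all UMIs at day 3 and 7556 at day 4, Hspa8 at 2696 and 2305, and Hspe1 at 1271 and 995. Hspd1 was at 1273 and 1174 CPM, Hspa5 at 520.4 and 468, and Hspb1 at 10.2 and 2.13. All 6 of these genes were lower in the day 4 lane than in the day 3 lane, as were 28 of all 36 members and 43.9% of 16063 genes with at least 10 UMIs over both lanes.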

How the data were processed

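The deposited UMI counts per gene and cell were made by the authors with Cell Ranger 6.0.0 and Seurat against mm10, per the submitters' processing notes; further settings are not stated there. Cell type names and gastruloid calls came from the authors' deposited cell table of 77674 final cells, of which 53730 had a gastruloid call. Cells called negative or doublet by their barcode entered no sum, and no doublet caller was run. Counts were summed over lanes per gastruloid (at least 30 cells). Differences were tested with edgeR 4.0.16 (R 4.3.3; quasi-likelihood, TMM, filterByExpr) over all genes with Benjamini-Hochberg adjustment at 0.05, and within cell type names with at least 20 cells and 5 gastruloids a group. DESeq2 1.42.0 was an alternative, with its adjusted p-values kept at 1e-10 or above. Pairs of genes were tested by 100000 permutations on log2(CPM + 1), with the pseudocount of 1.

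The test was tested on simulated data. For day 4 against day 3.5 of MULTI-seq 3 (13262 genes) it recovered 53.7%, 76.1% and 92.4% of genes changed 1.2, 1.5 and 2 fold, and 3.27% of calls were unchanged genes. For MULTI-seq 2 (11064 genes) the values were 22.4%, 73.1%, 89.4% and 3.15%. In each simulation 67, 67 and 66 genes were changed by these folds, as many up as down, and all others were unchanged. In the data 60.4% and 7.36% of genes were called in these 2 comparisons, so the simulated rates may not hold there.

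The members and all other gene lists were chosen with earlier results of these data known. Genes named in a comparison were the called members, up to the 10 with the largest fold change, plus Hspa5, Hsp90ab1, Hspd1 and Hspa8; within a name, up to 3 called members; in other lists, up to 3 called genes. Further members were named after their values were seen. The alternatives were DESeq2, no filter, at least 100 cells per gastruloid, mitochondrially encoded genes left out, each lane left out, the neural share as a covariate and at least 50 cells of a name; library totals without TMM were added after seeing the data. The neural share counts cells named Early, Caudal or Late Neurectoderm, Early or Late Spinal Cord, or Neurons. Pools of days 3 and 3.5 of MULTI-seq 2 were not analysed here. Gastruloid calls of MULTI-seq 2 came from lanes 2 and 3 of 1 pool.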

Additional observations from a re-analysis of the deposited data

Results flagged for a closer look

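Some single values stood apart from the others of their group by a gap test at the 95% level. Among lanes of the pool of days 3.5 and 4 of MULTI-seq 3, Hsph1 was at 93.4 CPM in lane C (89.7 to 90.1 in the other 3), Pdia3 at 319.9 CPM in lane C (326.2 to 326.7) and Cct2 at 620.2 CPM in lane D (630.2 to 631.6). Among gastruloids within a cell type name, 1 of 10 of day 3.5 of MULTI-seq 3 had 108 CPM of Pfdn4 in Early Posterior PSM (87.5 to 95.2 in the others). In MULTI-seq 2 day 4.5, 1 of 5 had 704 CPM of Cct5 in Late Spinal Cord (659 to 672), and in Mature Somites 1 of 7 had 531 CPM of Cct4 (441 to 475) and 1 of 7 had 43.1 CPM of Hsph1 (52.4 to 59.3). Such a value was found in 3 of 36 groups of lanes and in 4 of 69 groups of gastruloids, where chance gives about 1 in 20.

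For 16 of 34 members the difference of MULTI-seq 3 from MULTI-seq 2 was not the same at day 4.5 as at day 4 by an interaction term (edgeR adjusted p of 0.0243 or less), beside 33.9% of 12551 genes. Days 4 and 4.5 of MULTI-seq 3 came from different pools. On the log2 scale the difference at day 4.5 minus that at day 4 was above 0 for 11: Hsp90aa1 0.23, Ahsa1 0.35, Dnaja1 0.10, Hspe1 0.51, Cct6a 0.18, Pfdn1 0.52, Pfdn2 0.39, Pfdn4 0.57, Pfdn5 0.31, Vbp1 0.20 and Ppia 0.32. It was below 0 for 5: Stip1 -0.27, Hspa4 -0.22, Hsph1 -0.51, Hspa5 -0.40 and Pdia3 -0.16. The interaction was fitted with TMM only. Without TMM the members' differences between experiments moved by 0.164 to 0.166 at day 4 and by -0.05 to -0.03 at day 4.5. The smaller values above 0, and so the counts of 11 and 5, depend on the scaling.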

How the results depend on the processing

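Over all 8 comparisons and leaving aside the fits without TMM, the 245 single-gene values that the rule for named genes covers kept their side of the threshold, and their direction where called, in 2398 alternative fits (10 changed sign while called in neither fit), 59 fell below it, 8 rose above it and 2 called in 1 of the fits turned. For the fits without TMM, an alternative chosen after seeing the data, these numbers were 232 (3 with such a change of sign), 6, 3 and 4. Over all members, named by the rule or not, 9 calls had the opposite direction without TMM. With the neural share as a covariate the members called were 10 from day 4.5 to 5 of MULTI-seq 3 and 13 in MULTI-seq 2, against 6 and 5, while the share of all genes called went from 13.5% to 24.2% and from 7.36% to 14.4%. In MULTI-seq 2, gastruloids of at least 100 cells gave 3, and leaving out either lane gave 3 to 3. Within cell type names, at least 50 cells gave 218 calls against 482, over 11 pairs of name and comparison instead of 25, and over those same 11 pairs the value at 20 cells was also 218. From day 4 to 4.5 of MULTI-seq 3, Hsp90ab1 turned to -0.064 with no filter and to -0.19 without TMM, and Hspd1 to -0.13 with the neural share and to -0.16 without TMM. Without TMM, Hsp90ab1 turned to 0.13 at day 4 and to -0.027 at day 5 between experiments. For these values, each called in at least 1 of the fits compared, the cause was not tested. No paired analysis was possible because the replicate numbers in the labels are lanes, and each gastruloid was spread over the lanes of its pool. Low counts limit Hspa1a, Hspa1b and Hspb1, and small groups limit MULTI-seq 2.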
